A study of Homo sapiens with 6 samples.

Results

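The 10 genes examined belong to the Hippo pathway. They are STK3, STK4, LATS1, LATS2, SAV1, MOB1B, YAP1, WWTR1, TEAD1 and TEAD4, and they were searched for peaks of N6-methyladenine (6mA), an adenine that carries a methyl group on its amino nitrogen. A peak belonged to a gene if it overlapped the gene body or the 5 kb on either side of it. These were 10 of 20136 protein-coding genes, and they held 91 of the 72537 regions obtained by merging overlapping peaks of the 4 libraries. A region was called in a library if that library had a peak in it. The regions were spread very unevenly. The kinase gene STK3 held 37 of them, LATS1, LATS2 and MOB1B held 1 each, and SAV1 held none.

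The Hippo pathway is a kinase cascade that limits the growth of tissues. The upstream kinases STK3 (MST2) and STK4 (MST1), with the scaffold SAV1, activate the kinases LATS1 and LATS2, which work with MOB1 adaptors such as MOB1B. LATS1 and LATS2 phosphorylate the coactivators YAP1 and WWTR1 (TAZ) and so keep them out of the nucleus, where they would otherwise bind TEAD transcription factors such as TEAD1 and TEAD4 and turn on growth genes. LATS2 is regarded as a tumor suppressor in breast tissue, and YAP1 and WWTR1 as drivers of growth.

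All libraries came from MDA-MB-453, an established line of human breast cancer cells, so the results hold for this line alone. The cells received a scramble siRNA (Control) or an siRNA (si-N6AMT1) against human N6AMT1, a gene examined by the study as a writer of 6mA. Transfection was at 10 nM with Lipofectamine RNAiMAX and lasted 48 h. Each group had 2 libraries of DNA immunoprecipitated with a 6mA antibody (6mA-IP-seq) and 1 input library, for which no file was used here. The peak lists hold no measure of N6AMT1 expression, and the knockdown was not analysed here.

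The lists held 30451 and 33410 peaks in Control against 38847 and 40844 in si-N6AMT1. The genome-wide background applied by the peak caller, which rises with the number of fragments, was 1.05 and 1.36 fragments in Control against 1.41 and 1.53 in si-N6AMT1, so the 2 si-N6AMT1 libraries were the deeper ones and depth and group cannot be told apart. The fold enrichment of a peak is the pileup of fragments at its summit plus 1, divided by the local background plus 1. At this depth a call on the genome-wide background needed 8 fragments in Control replicate 1 and 9 in the other 3 libraries. With 2 libraries against 2, the smallest p that the exact two-sided permutation test can give is 0.333, so no difference between the groups could pass a threshold of 0.05.

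The sequences under the peaks are shown first, because the Hippo gene regions had a recognizable make-up. Each is 151 bases centred on the strongest summit of its region, on the plus strand of GRCh37 and written 5′ to 3′. Capitals mark runs of at least 10 adenines or thymines, CA or TG repeats of at least 6 units, and stretches of at least 25 purines or pyrimidines. The first 4 are from regions called in all 4 libraries, ranked by their lowest fold outside STK3, with some regions of higher rank not shown. They are followed by regions called in both libraries of one group and in neither of the other, and by the single LATS2 region.
STK4, chr20:43634769-43634919, called in all 4 libraries: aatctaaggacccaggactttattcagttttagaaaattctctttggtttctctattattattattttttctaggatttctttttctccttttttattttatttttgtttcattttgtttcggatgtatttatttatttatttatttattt
WWTR1, chr3:149409885-149410035, called in all 4 libraries: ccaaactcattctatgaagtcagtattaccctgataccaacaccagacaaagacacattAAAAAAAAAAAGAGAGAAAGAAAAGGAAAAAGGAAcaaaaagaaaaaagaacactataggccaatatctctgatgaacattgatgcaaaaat
TEAD1, chr11:12950706-12950856, called in all 4 libraries: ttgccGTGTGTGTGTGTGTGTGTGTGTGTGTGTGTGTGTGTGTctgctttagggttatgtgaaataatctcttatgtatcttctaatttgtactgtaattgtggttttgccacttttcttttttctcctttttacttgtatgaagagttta
TEAD1, chr11:12971172-12971322, called in all 4 libraries: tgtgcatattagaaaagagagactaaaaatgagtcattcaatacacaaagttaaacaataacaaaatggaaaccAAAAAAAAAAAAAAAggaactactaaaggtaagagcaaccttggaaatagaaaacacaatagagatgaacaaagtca
YAP1, chr11:102054357-102054507, called in both Control libraries only: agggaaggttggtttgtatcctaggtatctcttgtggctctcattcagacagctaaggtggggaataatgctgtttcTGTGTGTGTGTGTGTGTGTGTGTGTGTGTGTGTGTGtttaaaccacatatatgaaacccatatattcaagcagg
TEAD1, chr11:12948245-12948395, called in both si-N6AMT1 libraries only: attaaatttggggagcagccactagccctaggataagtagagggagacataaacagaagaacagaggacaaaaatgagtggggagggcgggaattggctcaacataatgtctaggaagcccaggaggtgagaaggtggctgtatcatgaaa
LATS2, chr13:21598188-21598338, called in si-N6AMT1 replicate 1: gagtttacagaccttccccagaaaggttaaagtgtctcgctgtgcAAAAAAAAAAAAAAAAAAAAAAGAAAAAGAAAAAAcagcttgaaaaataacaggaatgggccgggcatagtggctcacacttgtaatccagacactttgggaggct

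Of the 91 Hippo gene regions, 35 (38.5%) had an adenine run of this length at the summit, beside 9.89% of windows 1000 bp away from the same summits. Purine stretches were found in 28 summit windows (30.8%, beside 2.2% of the windows 1000 bp away), and CA repeats in 7 (7.69%, beside 0 of 182 windows). At least 1 of the 3 features was found in 52 summit windows (57.1%, beside 11% away from the summit). The regions at all genes and between genes gave the same picture, with 47.4% at 72532 summits and 6.8% beside them, so low-complexity sequence at summits was not particular to the Hippo genes. The adenine run itself was found at 26.6% of all summits. Shares over regions are descriptions, since regions of one gene share libraries and neighbourhood.

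**Figure D1:**
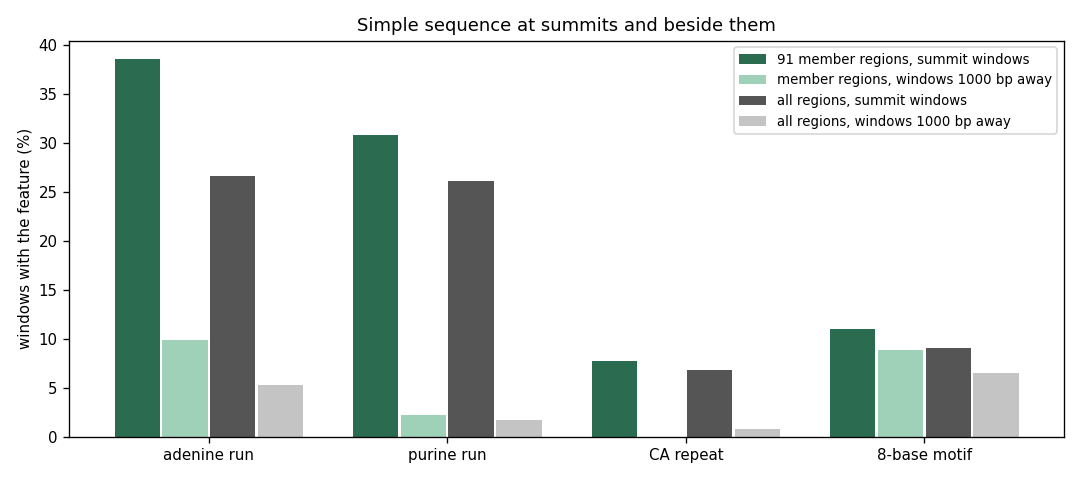
Share of 151-base windows (%, y axis) that held an adenine run, a purine stretch, a CA repeat or the 8-base motif, for summits of the 91 Hippo gene regions and of all regions and for windows 1000 bp away. Adenine runs were found at 38.5% of the Hippo gene summits against 9.89% beside them, and the motif at 11% against 8.79%.

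The adenine-richer strand was usually the one opposite to the gene's own strand. Of 90 Hippo gene summits inside genes of one strand only, 72 (80%) had more adenine on the antisense strand, beside 70.8% of 178 flanking windows. Over all genes the share was 71.3% of 31296 summits and 65.1% of 61932 flanking windows. Of the 34 such Hippo gene summits with an adenine run, 31 had more adenine on the antisense strand (91.2%), beside 75.5% of 9443 summits over all genes.

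The 8-base motif CAGGCTGG, searched on both strands because the study examined motifs in its peaks, was found at 10 of the 91 summits (11%), beside 8.79% of the flanking windows and 9.06% of all summits. Its distribution over the calls was looked at after the values were seen and was not tested. The motif was found in 9 of the 31 regions called in 1 or both si-N6AMT1 libraries and no Control library (29%). It was found in 0 of the 14 called in no si-N6AMT1 library and in 0 of the 21 called in all 4 libraries. Of the 9, 6 came from the 17 regions called in si-N6AMT1 replicate 1 alone, 2 from the 11 called in replicate 2 alone and 1 from a region called in both, so 1 library held most of them. They lay in STK3, STK4, WWTR1, TEAD1 and TEAD4, and 8 of the 9 had an adenine run in the same window. The other region with the motif, in YAP1, was called in 3 libraries. Over the whole genome the contrast was smaller. The motif was found at 13.5% of 26752 summits called in no Control library, 9.27% of 15366 called in no si-N6AMT1 library and 2.43% of 12127 called in all 4 libraries. The deeper libraries are the si-N6AMT1 libraries, and the part of depth in this contrast was not tested.

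In total, 6 of the 10 genes had a peak in each Control library, against 9 in the first si-N6AMT1 library and 6 in the second. LATS1, LATS2 and MOB1B account for the difference, each with a single peak in si-N6AMT1 replicate 1. The mean was 6 ± 0 genes in Control and 7.5 ± 2.12 in si-N6AMT1 (SD, n = 2 each; exact permutation test, p = 1), and the groups overlapped. Of all protein-coding genes 54.2% had a region called in at least 1 library, but the Hippo genes are long. Among genes with windows of similar length to each of the 10 (the shorter at least 80% as long as the longer), only 1.75% to 41% had no region, so 9 of 10 is close to what genes of such length showed.

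The 10 genes held 45 and 47 peaks in the Control libraries against 58 and 54 in the si-N6AMT1 libraries. Both si-N6AMT1 libraries had more peaks at these genes than both Control libraries. The mean was 46 ± 1.41 against 56 ± 2.83 peaks, a ratio of 1.22 (n = 2 each; exact permutation test, p = 0.333, the smallest possible), while the ratio for all peaks was 1.25. As a share of all peaks in the library, the Hippo genes took 0.148% and 0.141% in Control against 0.149% and 0.132% in si-N6AMT1. These shares overlapped, with means of 0.144% ± 0.00502 and 0.141% ± 0.0121 (exact permutation test, p = 1). Leaving out STK3, the counts were 26 and 26 against 35 and 32 peaks.

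**Figure D2:**
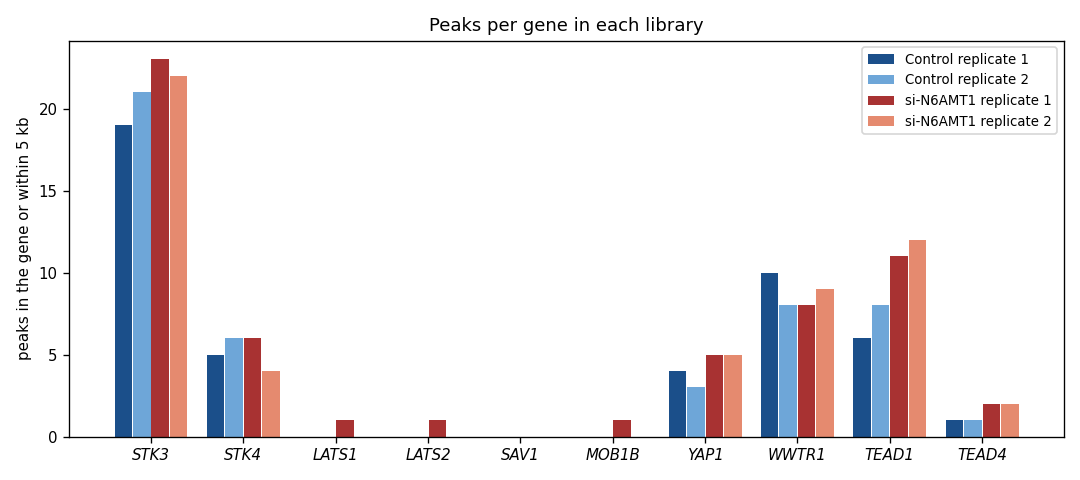
Number of peaks (y axis) in each of the 10 genes or within 5 kb of them, with one bar for each library. STK3 held 19 to 23 peaks in every library, SAV1 held none, and TEAD1 had 6 and 8 peaks in Control against 11 and 12 in si-N6AMT1.

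The peaks were dense for gene sequence. The windows of the 10 genes held 25.2 and 26.3 peaks per Mb in Control against 32.5 and 30.3 in si-N6AMT1. The windows of all protein-coding genes held 10.3 and 11.1 peaks per Mb in Control against 13.1 and 13.6 in si-N6AMT1. STK3 alone held 39.7% to 44.7% of the Hippo gene peaks, but the other genes without it still had 21.6 to 29.1 peaks per Mb.

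The genes fell into dense and sparse ones. STK4 (42.5), WWTR1 (38.1), STK3 (36.5), TEAD1 (33) and YAP1 (32) had over 30 peaks per Mb of window in the mean of the 4 libraries. TEAD4 had 16.4 peaks per Mb, LATS1 3.57, LATS2 2.54, MOB1B 1.92 and SAV1 0. The surroundings within 1 Mb of each gene followed the same order in part. They held 24.9 to 38.6 peaks per Mb around the 5 dense genes and 4.12 to 16.6 around the other 5. SAV1 had no peak although its surroundings held 15.8 peaks per Mb.

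The local background applied by the caller moved with this. It was taken over peaks in the gene window or within 1 Mb outside it, so the gene's own peaks are included. It was 1.53 times the genome-wide background for STK3, 1.73 for STK4, 1.94 for YAP1, 2.02 for WWTR1 and 2.39 for TEAD1. It was 1.02 to 1.36 times the genome-wide background for LATS1, LATS2, MOB1B, SAV1 and TEAD4. Each of the 5 dense genes thus lay where this background was higher than at each of the 5 sparse ones. Across the genome, bins of 1 Mb with at least 20 peaks showed the same relation. The median was 10.2 peaks per Mb and library in the 1573 bins below a ratio of 1.2, 25.4 in the 186 bins from 1.5 to 2, and 35.2 in the 31 bins above that. The limits of these bins were chosen after the values were seen, and the part of this background in the density of the Hippo genes was not tested.

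**Figure D3:**
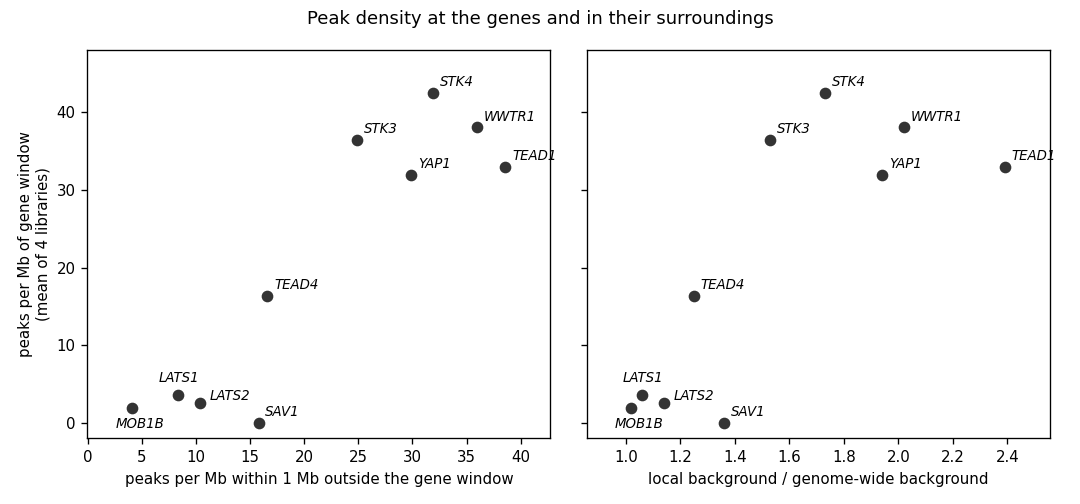
Peaks per Mb of gene window, as the mean of the 4 libraries (y axis), against the peaks per Mb within 1 Mb outside the window (left) and against the local background as a multiple of the genome-wide background (right), with 1 point for each gene. The local background was taken over peaks in the window or within 1 Mb outside it. STK3, STK4, YAP1, WWTR1 and TEAD1 lie at 32 to 42.5 peaks per Mb with a background ratio of at least 1.53, and the other 5 genes lie at or below 16.4 with a ratio of at most 1.36.

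Most Hippo gene peaks were intronic. Of 204 summits, 179 (87.7%) lay in introns, 21 outside the transcripts used here, 2 in promoters and 2 in exons. Introns make up 82.9% of the windows, and 53.3% of all peaks in the genome had their summit in an intron. The intron share was 84.4% and 89.4% in Control against 89.7% and 87% in si-N6AMT1, and the groups overlapped (exact permutation test, p = 0.667). In the reference transcript of each gene, 74 of the 91 regions lay in introns, 17 lay outside the transcript and 0 lay in exons. The promoters with a region were start sites of other transcripts, at STK4 and YAP1.

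**Figure D4:**
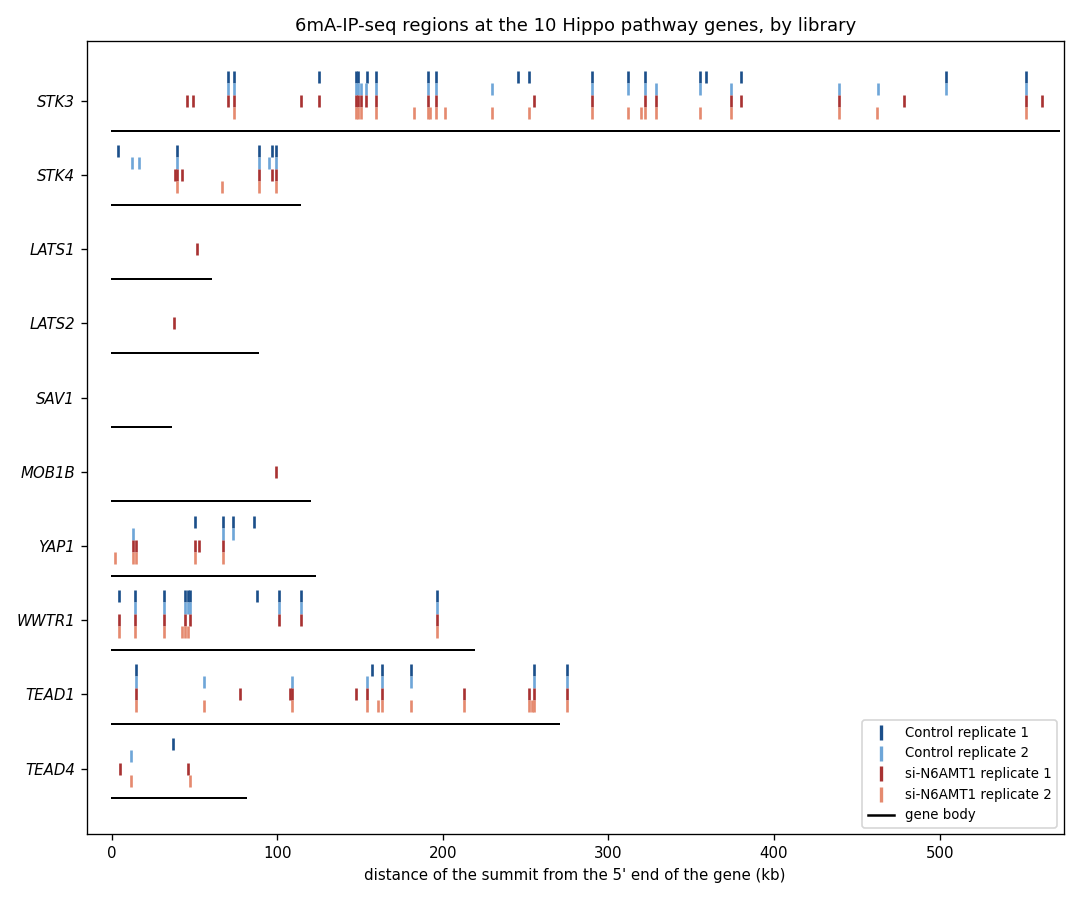
Position of each region's strongest summit as the distance from the 5′ end of its gene (kb, x axis) in the 10 genes, with 1 row of ticks for each library that called it and a line for the gene body. STK3 has ticks along most of its 572 kb, whereas LATS1, LATS2 and MOB1B have a single tick, in si-N6AMT1 replicate 1.

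Of the 91 regions, 21 were called in all 4 libraries (23.1%, beside 16.7% of all regions) and 17 in 3 (18.7%, beside 13%). Another 13 were called in 2 (14.3%, beside 20.7%) and 40 in 1 (44%, beside 49.6%). Only 2 regions were called in both Control libraries and no si-N6AMT1 library (2.2%, beside 2.62% of all regions), 1 each in STK3 and YAP1. Only 3 were called in both si-N6AMT1 libraries and no Control library (3.3%, beside 5.86%), 1 in YAP1 and 2 in TEAD1. Regions that separated the groups were thus no more frequent at the Hippo genes than elsewhere.

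STK3, the larger of the upstream kinase genes at chr8:99383456-99955055 (minus strand), had 19 and 21 peaks in Control against 23 and 22 in si-N6AMT1. It is 572 kb long and held 37 regions, 9 of them called in all 4 libraries. The counts of the groups did not overlap, but differed by no more than 4 peaks. When each library was reduced to the same number of peaks the means were 18 and 18.5.

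The strongest peak of any Hippo gene lay in intron 6 of the 11-exon STK3 transcript, at chr8:99632505-99633022. Its fold was 17 and 16.5 in Control against 9.72 and 11.2 in si-N6AMT1, from 38, 41, 25 and 30 fragments. Both Control libraries were higher, and the si-N6AMT1 mean was 0.622 times the Control mean. In intron 3, chr8:99763917-99764627 had folds of 8.11 and 10.1 against 6.14 and 6.36. In intron 1, chr8:99794862-99795425 had 7.52 and 6.99 against 5.55 and 6.44, and chr8:99807252-99808435 had 7.45 and 6.41 against 5.27 and 4.19. Upstream of the reference transcript, in an intron of a longer one, chr8:99881025-99881512 had 8.19 and 7.21 against 6.34 and 4.98. These 5 regions had both Control folds above both si-N6AMT1 folds.

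The opposite order was seen once among the 21 regions, also in intron 1 of STK3. At chr8:99805790-99806736 the folds were 5.82 and 5.28 in Control against 8.64 and 9.18 in si-N6AMT1, a ratio of 1.6. Pileups were 22 and 21 fragments against 24 and 27, and overlapped when divided by relative depth. The local background was 2.95 and 3.17 against 1.89 and 2.05. This region is 1 of 6 that lay within 13.6 kb of each other, chr8:99794862-99808435. In these, Control had 4 and 6 peaks and si-N6AMT1 had 5 and 4. The other 3 regions called in all 4 libraries overlapped between the groups. Their folds were 11.8 and 10.5 against 11.2 and 10.8 at chr8:99759067-99759637 in intron 4, and 6.76 and 6.68 against 5.55 and 6.75 at chr8:99664977-99666019 in intron 6. Downstream of the reference transcript, but within the gene record, chr8:99402618-99403209 had 9.49 and 6.4 against 8.11 and 6.31.

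In STK3, 7 regions were called in 3 libraries. Control replicate 1 lacked a peak at chr8:99515299-99516188 in intron 10 (folds 4.89, 5.8 and 5.48 in the other 3), at chr8:99580770-99581684 in intron 8 (8.59, 6.75 and 6.7), at chr8:99625501-99626642 in intron 6 (4.08, 8.26 and 7.21) and at chr8:99803207-99804548 in intron 1 (6.7, 5.48 and 7.47). The library missing most often in STK3 was therefore the shallowest. Replicate 1 of si-N6AMT1 lacked chr8:99599085-99599992 in intron 7 (6.8, 4.35 and 7.03) and chr8:99642710-99643187 in intron 6 (10.9, 9.03 and 8.02). Replicate 2 of si-N6AMT1 lacked chr8:99884719-99885871, upstream of the reference transcript (6.98, 3.68 and 3.69).

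Another 6 STK3 regions were called in 2 libraries, and only 1 of them separated the groups. It was chr8:99450835-99451202, called in Control with folds of 9.16 and 8.5 and not in si-N6AMT1. It lies within the STK3 gene record but downstream of the reference transcript, in an exon of the long noncoding RNA gene ENSG00000272321. The others had 1 peak in each group, with folds of 5.91 and 5.2 at chr8:99574871-99575294 (intron 8), 4.4 and 5.37 at chr8:99702634-99703164 (intron 6), 5.17 and 4.82 at chr8:99724976-99725807 (intron 4), 8.3 and 6.14 at chr8:99801430-99802563 (intron 1), and 5.02 and 5.91 at chr8:99829614-99830113 (intron 1), Control first. The remaining 15 regions were called in 1 library, 3 and 1 in the Control libraries against 6 and 5 in the si-N6AMT1 libraries, with folds of 4.26 to 9.29.

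STK4, the paralogous upstream kinase gene at chr20:43595135-43708662 (plus strand), was the densest of the 10 genes, with 5 and 6 peaks in Control against 6 and 4 in si-N6AMT1. Of its 11 regions, 3 were called in all 4 libraries. At chr20:43634483-43635800 in intron 9, the folds were 10.5 and 9.55 in Control against 10.2 and 7.81 in si-N6AMT1, which overlapped. At chr20:43683917-43684562 in intron 10, they were 6.07 and 6.57 against 10.7 and 5.93. The high value there belonged to si-N6AMT1 replicate 1 alone. At chr20:43693849-43694620, in the same intron, both Control folds (9.77 and 8.16) were above both si-N6AMT1 folds (5.94 and 8.03). A further region, chr20:43692006-43692450 in intron 10, was called in replicate 1 of each group (7.25 and 5.36). The other 7 were called in 1 library, with folds of 4.6 to 8.03, and 1 of them lay at an alternative start site and was called in Control replicate 1.

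LATS1 and LATS2, the kinases that phosphorylate YAP1 and WWTR1, had 1 peak each, both in si-N6AMT1 replicate 1. The LATS1 gene, chr6:149979289-150039241 (minus strand), held chr6:149987147-149987519 in intron 7, with 14 fragments and a fold of 6.21. The LATS2 gene, chr13:21547175-21635725 (minus strand), held chr13:21597719-21598308 in intron 2 of 8 exons, 37.5 kb from the start site, with 11 fragments, a fold of 4.97 and a −log10 q of 5.2. Neither peak was called in the other library of its own group. The LATS2 call lay 2 fragments above the 9 that a call on the genome-wide background needed in that library. It was lost when each library kept the same number of peaks.

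Genes of similar window length had a median of 2 regions for LATS2 (1998 genes) and of 1 region for LATS1 (2546 genes). Of these, 38.8% had at most 1 region in the case of LATS2 and 54.8% in the case of LATS1. The LATS2 summit window, printed above, holds an adenine run and a purine stretch.

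The primer pair listed by the study for 6mA-IP-qPCR at LATS2 did not match this locus. It is shown because it bears on where LATS2 was assayed for 6mA. The study also reported lower LATS2 mRNA after the knockdown, by RNA-seq and qRT-PCR, which does not rest on this pair.
LATS2 forward primer: TGCTCCTGCAAACTAGACCTG
LATS2 reverse primer: GACTCATTTGCTTCCAGTGCC

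An exact search of both strands of all chromosomes of GRCh37 found each primer once, on chromosome 4, and 0 times on chromosome 13, where LATS2 lies. The pair encloses 142 bp, chr4:21038040-21038181, in an intron of KCNIP4, a gene for a potassium channel interacting protein. No library had a peak overlapping this stretch. The nearest peak was 50.3 and 285 kb away in Control against 285 and 16.2 kb away in si-N6AMT1. The search allowed no mismatch, and all 16 primers of the 8 pairs listed for the assay had their 1 exact match on chromosome 4. Which of the other pairs match their own gene is not given here.

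The adaptor genes were nearly free of peaks. SAV1, the scaffold of the upstream kinases at chr14:51098776-51135024 (minus strand), had no peak in any library. It is the shortest of the 10 genes at 36.2 kb, and 41% of the 3076 protein-coding genes of similar window length had no region either. MOB1B, an activator of the LATS kinases at chr4:71768043-71888166 (plus strand), had 1 peak in si-N6AMT1 replicate 1, with 16 fragments and a fold of 7.04. This region, chr4:71867425-71867801, lies past the end of the reference MOB1B transcript, in an intron of the overlapping gene DCK, so it cannot be given to MOB1B alone. Of 1701 genes of similar length, 11% had no region and 89% had at least 1.

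YAP1, the coactivator at chr11:101981178-102104155 (plus strand), had 4 and 3 peaks in Control against 5 and 5 in si-N6AMT1. The groups did not overlap, by 1 peak, and the means were 3.5 and 4 when libraries were reduced to equal numbers of peaks. Of its 8 regions, 1, chr11:102047385-102048575 in intron 3 of 9 exons, was called in all 4 libraries. Its folds of 5.59 and 4.12 against 5.2 and 4.9 were the lowest of the 21 shared regions in their highest value, and they overlapped.

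YAP1 was the only one of the 10 genes with a region particular to each group by the calls. In intron 2, chr11:101995936-101996342 was called in si-N6AMT1 alone, with folds of 4.47 and 4.46 from 21 and 23 fragments. In intron 3, chr11:102054106-102054797 was called in Control alone, with folds of 3.93 and 4.9 from 16 and 23 fragments, on a TG repeat. All 4 folds were below the medians of the regions called in all 4 libraries. Of 2 regions called in 3 libraries, chr11:101994018-101994797 in intron 2 lacked Control replicate 1 (8.04, 5.09 and 5.2) and chr11:102031559-102032090, also in intron 2, lacked Control replicate 2 (5.72, 6.11 and 3.62). The 3 regions called in 1 library had folds of 6.51 to 7.94. The one called in si-N6AMT1 replicate 2 lay at an alternative start site 1.98 kb inside the gene.

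WWTR1, which encodes TAZ, the paralog of YAP1, at chr3:149235022-149454501 (minus strand), had 10 and 8 peaks in Control against 8 and 9 in si-N6AMT1. The counts overlapped. Of its 11 regions 4 were called in all 4 libraries and 5 in 3, the highest share of repeated calls among the genes with over 1 region. In an intron of a longer transcript 34.1 kb upstream of the reference start site, chr3:149408877-149410229 had folds of 12.1 and 11.6 in Control against 7.2 and 8.47 in si-N6AMT1. At chr3:149257645-149258194 in intron 4 of 7 exons, they were 7.65 and 8.16 against 6.09 and 6.11. Both regions had both Control folds above both si-N6AMT1 folds. At the first, pileups were 29 and 36 fragments in Control against 29 and 37 in si-N6AMT1. The local background there was 1.48 and 2.19 against 3.17 and 3.49. Divided by relative depth, the pileups were 29 and 27.2 against 20.9 and 24.7.

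The other 2 shared WWTR1 regions overlapped between groups. They lie inside the gene record but outside the transcripts used here, at chr3:149422421-149423167 (8.83 and 8.88 against 8.17 and 10) and chr3:149439756-149441098 (6.12 and 8.78 against 7.35 and 6.97). In all, 3 regions lacked a call in si-N6AMT1 replicate 2, namely chr3:149340079-149340615 (folds 6.6, 7.34 and 8.66) and chr3:149353158-149353598 (9.6, 8.16 and 7.66) in intron 2, and chr3:149407009-149407481 upstream (7.04, 9.3 and 6.79). The region chr3:149407890-149408351 upstream, lacked si-N6AMT1 replicate 1 (7.29, 7.63 and 5.73), and chr3:149449603-149450082, in the gene record 74 kb upstream of the reference start site, lacked Control replicate 2 (6.21, 6.21 and 7.01). No library was thus missing from all of them. The one missing most often in WWTR1, si-N6AMT1 replicate 2, was the deepest library. The 2 regions called in 1 library had folds of 5.01 and 5.63.

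TEAD1, a transcription factor that recruits YAP1 and WWTR1 to DNA, at chr11:12695968-12966284 (plus strand), differed most between the groups in peak number. It had 6 and 8 peaks in Control against 11 and 12 in si-N6AMT1. The means were 7 ± 1.41 and 11.5 ± 0.707 (n = 2 each; exact permutation test, p = 0.333, the smallest possible). With equal numbers of peaks per library the means were 7 and 11, so the difference was nearly as large. The lists were cut by rank of −log10 p, which itself depends on depth, so this setting does not equalise depth. TEAD1 was singled out after the values of the 10 genes were seen.

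Of the 16 TEAD1 regions, 2 were called in both si-N6AMT1 libraries and in neither Control library. At chr11:12908501-12908905 in intron 9 of 13 exons, the folds were 5.78 and 5.68 from 23 and 24 fragments, and at chr11:12948054-12948425 in intron 11, 4.87 and 4.18 from 22 and 20 fragments. The second of them is the near neighbour of a region called in all 4 libraries. No TEAD1 region was called in both Control libraries alone.

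The 4 TEAD1 regions called in all 4 libraries showed no such gain. At chr11:12859026-12859611 in intron 3, both Control folds (10.9 and 10.2) were above both si-N6AMT1 folds (9.24 and 7.56). At chr11:12710341-12710850 in intron 2, the folds were 8.55 and 7.37 against 6.14 and 10.8, and at chr11:12950519-12951114 in intron 11, 10.1 and 7.61 against 6.61 and 8.56. Downstream of the gene, chr11:12971048-12971552 had 10.6 and 9.11 against 9.16 and 6.49. These last 3 overlapped between the groups.

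Among the TEAD1 regions called in 3 libraries, Control replicate 1 lacked chr11:12804491-12804918 (6.63, 6.25 and 7.35) and chr11:12850046-12850498 (5.86, 5.1 and 5.67), and si-N6AMT1 replicate 1 lacked chr11:12876149-12877051 (5.77, 5.35 and 5.92), all in intron 3. The second library of each group shared chr11:12751804-12752248 in intron 2 (6 and 5.49). The 6 regions called in 1 library, 1 in Control replicate 1 and 3 and 2 in the si-N6AMT1 libraries, had folds of 4.17 to 7.72.

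TEAD4, a paralog of TEAD1 at chr12:3068496-3149842 (plus strand), had 1 and 1 peaks in Control against 2 and 2 in si-N6AMT1. None of its 5 regions was called in all 4 libraries. The region chr12:3080434-3081041 in intron 2, was called in the second library of each group (5.23 and 4.62), and the others in 1 library each, with folds of 4.32 to 6.87. With equal numbers of peaks the means were 1 and 1, so the order of the groups was lost.

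In peak counts, STK3, YAP1, TEAD1 and TEAD4 had both si-N6AMT1 counts above both Control counts, 4 of the 9 genes with a region, and 0 had the opposite order. Among 10917 protein-coding genes with a region, 13% and 3.02% had these orders. Those genes were not matched to the Hippo genes in length or number of peaks, so the shares cannot show an excess. Of the 4 genes, TEAD1 alone kept a difference of more than 1 peak in the means when libraries had equal numbers of peaks.

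In fold enrichment the order was the other way. Over the 21 regions called in all 4 libraries, the median fold was 8.56 and 8.16 in the Control libraries against 7.2 and 6.97 in the si-N6AMT1 libraries. Both si-N6AMT1 medians were lower, with means of 8.36 ± 0.28 and 7.09 ± 0.162 (n = 2 each; exact permutation test, p = 0.333, the smallest possible), a ratio of 0.848. Over all 12132 regions called in all 4 libraries the ratio was 0.97, with overlapping medians of 8.84 and 8.38 against 8.45 and 8.25. At single Hippo gene regions, both Control folds were above both si-N6AMT1 folds at 9 of 21, beside 24.3% of all such regions, and the reverse held at 1 of 21, beside 16.9%.

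Because the added 1 and the background make the fold depend on depth, the pileup divided by relative depth was compared as well. It was higher in both Control libraries at 10 of the 21 regions, beside 30.6% of all regions called in all 4 libraries. It was higher in both si-N6AMT1 libraries at 0 of the 21, beside 657 of all 12132 such regions, so this order was rare everywhere. The median was 26 and 23.4 fragments in Control against 18.1 and 18 in si-N6AMT1. Over all such regions it was 21 and 16.6 against 17.3 and 16, where Control replicate 1, the shallowest library, was highest. The higher Control folds at the Hippo genes were spread over STK3 (5 regions), WWTR1 (2), STK4 (1) and TEAD1 (1), so they came from 4 genes, and leaving out STK3 the means were 8.88 and 7.48. Among these regions, depth-scaled pileups overlapped at chr8:99807252-99808435, chr8:99881025-99881512 and chr11:12859026-12859611. At the first, pileups were 17 and 17 fragments in Control against 18 and 15, and the local background was 1.42 and 1.81 against 2.61 and 2.82. Other regions, such as chr8:99759067-99759637, had the order in depth-scaled pileup but not in fold.

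**Figure D5:**
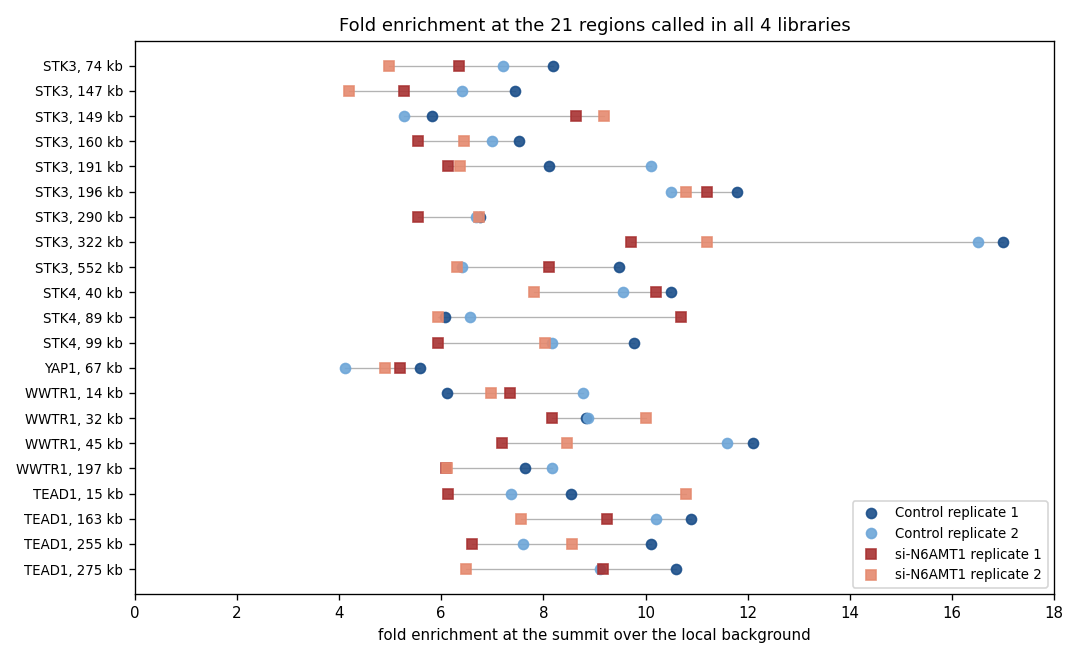
Fold enrichment over the local background (x axis) at the 21 Hippo gene regions called in all 4 libraries, with 1 row for each region, named by its gene and the distance of its summit from the 5′ end of the gene, and 1 point for each library. The STK3 region 322 kb from the 5′ end falls from 17 and 16.5 in Control to 9.72 and 11.2 in si-N6AMT1, and only the STK3 region at 149 kb has both si-N6AMT1 points to the right of both Control points.

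Another 32 genes of the pathway, from a list of upstream regulators, scaffolds, inhibitors, further TEAD factors and target genes, gave 124 regions at 23 genes. They held 40 and 50 peaks in Control against 59 and 61 in si-N6AMT1. Of the 124 regions 17 (13.7%, beside 16.7% of all regions) were called in all 4 libraries and 76 (61.3%, beside 49.6%) in 1 library. In both Control libraries alone 0 were called, beside 2.62% of all regions, and in both si-N6AMT1 libraries alone 9 (7.26%, beside 5.86%). The genes with both si-N6AMT1 counts above both Control counts were WWC2, MAP4K5, TNIK, DCHS1 and TEAD2, named after their values were seen, and 0 had the opposite order. These are 5 and 0 of 23 genes with a region, beside 13% and 3.02% of all genes with a region, again not matched in length. The classical YAP1 target genes CCN1, CCN2 and ANKRD1 had no region. These genes are short, and 78.2%, 78.1% and 71% of protein-coding genes of similar window length had none either.

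The fold order seen at the 10 genes was not seen here. Of the 17 regions called in all 4 libraries, 2 had both Control folds above both si-N6AMT1 folds (beside 24.3% of all such regions) and 3 had the reverse (beside 16.9%). The 2 were chr3:170795983-170796533 in TNIK (8.01 and 7.36 against 6.53 and 5.6) and chr11:94531492-94532418 in AMOTL1 (7.84 and 6.09 against 5.31 and 5.51). The 3 lay in TAOK3, TNIK and DCHS1. Whether the 10 genes and these differ in fold order was not tested.

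Among these other genes the kinase gene TNIK had 23 regions, of which 5 were called in all 4 libraries and 3 in both si-N6AMT1 libraries alone. The tumor suppressor gene NF2, which encodes merlin, had 2 regions called in all 4 libraries, and the stronger, chr22:30046332-30046893, had folds of 13.3 and 9.87 in Control against 15.7 and 13.1 in si-N6AMT1. At the promoter of DCHS1, an atypical cadherin gene, chr11:6677187-6677911 had 10.9 and 9.52 against 13.1 and 11.6. Upstream of the other cadherin gene, FAT4, chr4:126232535-126233050 had 11.7 and 8.14 against 15.1 and 7. WWC1, TAOK3, MAP4K5, AMOTL1, PTPN14 and VGLL4 also had regions called in all 4 libraries. Promoter regions called in both si-N6AMT1 libraries alone were found at WWC2 (folds 6.63 and 5.93) and TEAD2 (5.38 and 4.75), and others of this kind lay in WWC1, MAP4K5, AMOTL1 and VGLL4.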

How the data were processed

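The peak lists of 4 immunoprecipitated libraries of MDA-MB-453 cells were used, 2 Control and 2 si-N6AMT1, grouped by their titles. According to the study's methods, paired-end reads were aligned to hg19 with Bowtie2 2.3.5 and freed of duplicates with SAMtools 1.9, and MACS2 was run on every library at a p threshold of 1e-05. Which input served each run is not given in the sources used here. Each group had 1 input, so the folds of a group may share a local background and may not be independent. The deposited fold is the ratio of pileup plus 1 to local background plus 1. The −log10 p and −log10 q deposited by the authors are those of the summit. The score deposited by the authors is 10 times the −log10 p cut to a whole number, for all but 5 peaks, and was not used. Pileup and background were recovered from fold and −log10 p, and 100% of pileups came out whole within a tolerance of 0.02. The median pileup was 17 to 19 fragments, so single calls rest on few fragments. Read totals were not used here, and the lists of the 2 inputs were not analysed here.

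Peaks that shared at least 1 bp were merged into regions. The region of a gene was its body and 5 kb on either side, from GENCODE v44 lifted to GRCh37, whose primary assembly was used for hg19. All 10 genes were matched. Summits were assigned to promoters (within 1000 bp of a start site), then exons, then introns of basic transcripts of protein-coding and long noncoding RNA genes. Introns were numbered in the MANE or canonical transcript. Each library gave 1 value, and groups were compared by permutation of the libraries (exact, two-sided, 6 assignments). The study's methods call the libraries of a group biological replicates, without saying how the cultures were kept apart, and p-values cover the spread between these libraries. Shares of all regions or genes were set beside those of the Hippo genes without a test. Scripts used pandas 2.3.3, numpy 2.4.6, scipy 1.17.1, matplotlib 3.10.9 and pysam 0.24.0 under Python 3.11.15, with samtools 1.23.1, and were tested on simulated data. The genes and lists were chosen with earlier results of these data known. All 10 genes are named, regions called in at least 2 libraries are given singly, and other pathway genes are named if a region was called in all 4 libraries or in both libraries of 1 group only. Alternatives were flanks of 0 and 10 kb, the summit inside the window, merging across 200 bp, a −log10 q of 5 or more, lists reduced to equal length, depth-scaled pileup, a wider promoter, the replicate block, and each library left out in turn. Leaving out STK3 was added after seeing the data. The summit sequences of 4 regions that the rule would show are not reported here.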

Additional observations from a re-analysis of the deposited data

How the results depend on the processing

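Of 78 values recomputed for the 10 genes together, 63 were counted as the same in direction or size, 10 moved and 5 reversed. The 63 include the replicate block values, which cannot change. They also include the difference in genes with a peak without si-N6AMT1 replicate 1, which fell from 1.5 to 0 and so lost its direction. The share of all peaks at the Hippo genes has no stable direction. The si-N6AMT1 minus Control difference of -0.00347 percentage points became 0.0164 with equal numbers of peaks and 0.00262 without STK3, and lay between -0.012 and 0.00508 as each library was left out, with 8.06e-05 without Control replicate 1. The intron share difference lay between -1.02 and 3.9 percentage points, and was reversed without Control replicate 1. The number of regions called in both Control libraries alone fell from 2 to 1 with a −log10 q of at least 5. With each library left out in turn, so that 1 library could stand for its group, it was 5 to 10, and the matching number for si-N6AMT1 was 5 to 20. The fewer libraries a call must be found in, the more regions qualify by construction. Regions called in all 4 libraries fell from 21 to 12 without STK3. The peak count kept its sign throughout (5 to 12 more peaks in si-N6AMT1), as did the median fold, whose difference lay between -1.4 and -0.82, or was -6.69 fragments as depth-scaled pileup. Of 90 values for single genes, 87 stayed within the spread between replicates, and the counts of STK3, YAP1 and TEAD4 moved with equal numbers of peaks. The 87 include SAV1, which had 0 peaks in every setting. They also include LATS1, LATS2 and MOB1B, whose difference of 0.5 was smaller than their spread of 0.707. The loss of their only peak, as for LATS2 with equal numbers of peaks, thus counted as within the spread.

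The replicate numbers of the labels are shared between groups, but nothing says that they mark a shared culture or day, and the deviations of same-numbered libraries from their group means gave r = 0.0053 over the regions and r = -0.299 over the 10 genes. With the replicate block the differences stay 1.5 genes, 10 peaks, -0.00347 percentage points and -1.27 in median fold by construction, and the exact sign-flip test gave p = 1, 0.5, 1 and 0.5, where 0.5 is the smallest it can give.

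Depth limits single calls near the threshold, such as that of LATS2 with 11 fragments. The 40 regions called in 1 library had 11 to 34 fragments at the summit, with a median of 20. The smallest pileup for a call on the genome-wide background does not apply where the local background is higher. At chr11:12949607-12950013 in TEAD1 the local background was 4.43 fragments in si-N6AMT1 replicate 2, beside 1.53 genome-wide. How far the 40 lay above the pileup needed at their own background was not computed. Why the 40 regions were called once was not tested.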

Other observations

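The 40 Hippo gene regions called in 1 library numbered 8 and 4 in Control against 17 and 11 in si-N6AMT1. Over the whole genome, such regions numbered 5951 and 7511 in Control against 10571 and 11930 in si-N6AMT1, so they were more frequent in si-N6AMT1 there too. At the Hippo genes an adenine run was found at 2 of the 8, 2 of the 4, 11 of the 17 and 4 of the 11. In the genome as a whole the shares with such a run were 28.4%, 26.8%, 34.1% and 33.5% of regions called in 1 library, and 15% of regions called in all 4. The Hippo gene regions called in all 4 libraries differed from this last value, with an adenine run at 9 of 21 (42.9%). These counts were made after the values were seen and were not tested.

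Close groups of at least 3 regions with gaps of at most 5 kb were found at STK3, STK4, WWTR1 and TEAD1. In TEAD1, the group at chr11:12948054-12951114 had 1 and 1 peaks in Control against 2 and 3 in si-N6AMT1, and the group at chr11:12850046-12859611 had 2 and 2 against 2 and 3. In WWTR1, the group of 4 regions at chr3:149407009-149412395 had 3 and 3 against 2 and 4. No such group was found at YAP1 or TEAD4.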
